A study of Mus musculus with 10 samples.

Results

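Expression of 10 cell surface adhesion molecules was examined in the murine melanoma line WT31 and in its hepatically passaged subline WT31_P5IV. The genes were Mcam, Alcam and Bcam, the L1 family genes L1cam, Chl1 and Nrcam, the neural cell adhesion molecule Ncam1, the integrin ligands Icam1 and Vcam1, and Cd44. They were taken by symbol from the 55385 gene identifiers of the deposited files, and each symbol matched 1 identifier. WT31 was derived from mice that carry NrasQ61K under the tyrosinase promoter (Tyr::NrasQ61K/°) and lack Ink4a (INK4a-/-), so both groups share these alleles. WT31_P5IV was obtained by 5 rounds of tail vein injection, isolation of macroscopic liver metastases and culture, and is 1 serially selected subline. RNA was sequenced from untreated cells of both lines, which were grown in RPMI 1640 with 10% fetal calf serum and harvested at 50% confluency, with 5 libraries per group.

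The libraries are labelled as biological replicates, and nothing says that they came from separate thaws or cultures, so that p-values measure only the spread between these samples. The libraries held 24255389 to 25750639 estimated counts. The first principal component, with 74.5% of the variance, separated WT31 from WT31_P5IV. On the second, with 6.18%, WT31 replicates 2 and 3 (scores of -17.9 and -16.6) stood apart from the other WT31 libraries (3.07 to 21.0). The label of melanoma cells was checked with marker genes. The summed level of 9 melanocyte markers was 18122 to 19490 CPM (estimated counts scaled to the library size) in WT31 and 23675 to 27375 CPM in WT31_P5IV. These markers did not move alike, since 5 of the 9 rose (Pmel, Dct, Slc45a2, Kit and Tyr, log2 fold changes 0.25 to 1.22), Tyrp1 and Sox10 fell (-0.96 and -0.14), and Mlana and Mitf were not called (0.01 and -0.01). That of 10 leukocyte and macrophage markers was 4.84 to 6.72 and 4.34 to 6.24 CPM, with 7 of the 10 at 3 counts or fewer in every library, among them Ptprc, Adgre1 and Cd14. Of the others, Cd68 rose from 1.37 ± 0.455 to 3.73 ± 0.638 CPM (log2 fold change 1.45, edgeR adjusted p = 1.16e-05) and Lyz2 fell from 4.33 ± 0.530 to 1.08 ± 0.156 CPM (log2 fold change -2.01, edgeR adjusted p = 7.64e-09; SD, n = 5). That of 10 endothelial markers was 4.75 to 7.13 and 7.76 to 9.46 CPM, most of it from Egfl7, with 6 of the 10 at 3 counts or fewer in every library, among them Cdh5 and Kdr. Markers of hepatocytes and biliary cells summed to at most 1.30 CPM. Markers of fibroblasts and stellate cells summed to 3.77 to 4.82 CPM in WT31 and 5.56 to 6.56 CPM in WT31_P5IV. Of the 5 tested, Col1a1, Col1a2 and Acta2 rose past 2-fold (log2 fold changes 1.00, 1.40 and 1.47) to means of 1.73, 1.23 and 0.758 CPM, and Pdgfra and Pdgfrb were not called (-0.04 and -0.18). The part of these markers in the results was not tested.

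Most of these molecules belong to the immunoglobulin superfamily, whose members hold cells together or to the matrix by binding a like molecule, another family member, an integrin or a laminin. MCAM, ALCAM and L1CAM are known for their expression in melanoma. CD44 is not an immunoglobulin-type molecule. It is the main receptor for hyaluronan, a large sugar polymer of the matrix, and its intracellular tail is linked to the actin cortex by ezrin, radixin and moesin.

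Promoter sequences were taken from RefSeq (GRCm38.p6), where 8 of the 10 genes matched an entry. The 250 bases before the transcription start are shown for 3 genes with a stretch that holds no exon of GENCODE M21, namely the 2 most abundant of the group, Cd44 and Nrcam, and Icam1, which lay close to the limit of detection. Each runs 5′ to 3′ on the strand of the gene, and capitals mark matches to the motifs named after them. The stretches are chr2:102901666-102901915 (minus strand) for Cd44, chr12:44328635-44328884 (plus strand) for Nrcam and chr9:21015690-21015939 (plus strand) for Icam1.
Cd44: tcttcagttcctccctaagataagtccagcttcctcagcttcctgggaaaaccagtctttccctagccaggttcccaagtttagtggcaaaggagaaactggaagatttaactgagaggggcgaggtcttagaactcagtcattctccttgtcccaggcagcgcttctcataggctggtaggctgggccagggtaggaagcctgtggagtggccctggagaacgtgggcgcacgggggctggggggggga
Nrcam: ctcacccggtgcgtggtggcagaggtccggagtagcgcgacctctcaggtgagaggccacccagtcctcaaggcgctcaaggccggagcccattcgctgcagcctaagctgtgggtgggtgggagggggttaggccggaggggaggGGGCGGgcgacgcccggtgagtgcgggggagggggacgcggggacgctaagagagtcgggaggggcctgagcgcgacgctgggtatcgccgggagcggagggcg
Icam1: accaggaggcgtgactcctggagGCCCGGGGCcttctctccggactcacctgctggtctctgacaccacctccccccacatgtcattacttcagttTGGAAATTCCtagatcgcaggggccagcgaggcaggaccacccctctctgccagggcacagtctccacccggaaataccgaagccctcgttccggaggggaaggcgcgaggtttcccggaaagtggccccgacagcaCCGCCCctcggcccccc

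The motifs searched on both strands were the E-box CACGTG, the M-box TCATGTG, the AP-1 motif TGANTCA, the cAMP response element TGACGTCA, the AP-2 motif GCCNNNGGC, the GC box GGGCGG and the NF-kB motif, read as GGG, A or G, any 2 bases, 2 bases of C or T, and CC. A wider NF-kB motif, with G or T as the first base, was added after the Icam1 sequence was seen. In the stretches shown no match overlapped another. Nrcam held the GC box at positions -104 to -99 from the start site. Icam1 held it on the other strand at -17 to -12 and the AP-2 motif at -227 to -219. The NF-kB motif with G as the first base was in none of the stretches shown, and the wider one matched TGGAAATTCC at -154 to -145 of Icam1. None of the motifs was found in the stretch of Cd44. Among 32536 distinct stretches of this length, 33% held the GC box, 13.8% the AP-2 motif, 7.28% the NF-kB motif and 14.2% its wider form, 6.73% the AP-1 motif, 6.04% the E-box, 3.27% the M-box and 1.56% the cAMP response element. The stretch of Nrcam was 72.4% G and C with 25 CpG, that of Icam1 65.2% with 15, and that of Cd44 56.4% with 5, against medians of 52.4% and 6 over all stretches.

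To see which of these molecules differed between the parental line and the subline, the libraries were compared in the quasi-likelihood test of edgeR with adjustment over all 13620 genes tested. Errors of log2 fold changes are standard errors (SE). Of the 10 genes, 8 had enough counts to be tested, and all 8 differed at an adjusted p under 0.05. 5 were higher in WT31_P5IV (Mcam, Bcam, Nrcam, Ncam1 and Cd44) and 3 were lower (Alcam, L1cam and Chl1). The background was high, since 68.5% of all tested genes were called, 34.6% higher and 33.9% lower, so that the calls alone do not set the molecules apart from other genes. Past a 2-fold change were Alcam and Chl1, both lower, against 9.19% of tested genes in either direction, 3.69% lower and 5.5% higher at this size. None of the members was past 2-fold upward in this edgeR fit of all libraries, in DESeq2 or in limma voom. Nrcam was closest to it, and it was past 2-fold with upper-quartile scaling (log2 fold change 1.02), without WT31_P5IV replicate 4 and without WT31 replicates 2 and 3. The median absolute log2 fold change of the 8 genes was 0.69, and that of all tested genes 0.30. The genes were chosen with earlier results of these data known, so this gap cannot be read as a result about the group. The CPM of the groups were apart in 7 of the 8 genes, against 54.1% of tested genes. In these bulk libraries fewer cells that express a gene and less RNA per cell cannot be told apart.

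**Figure D1:**
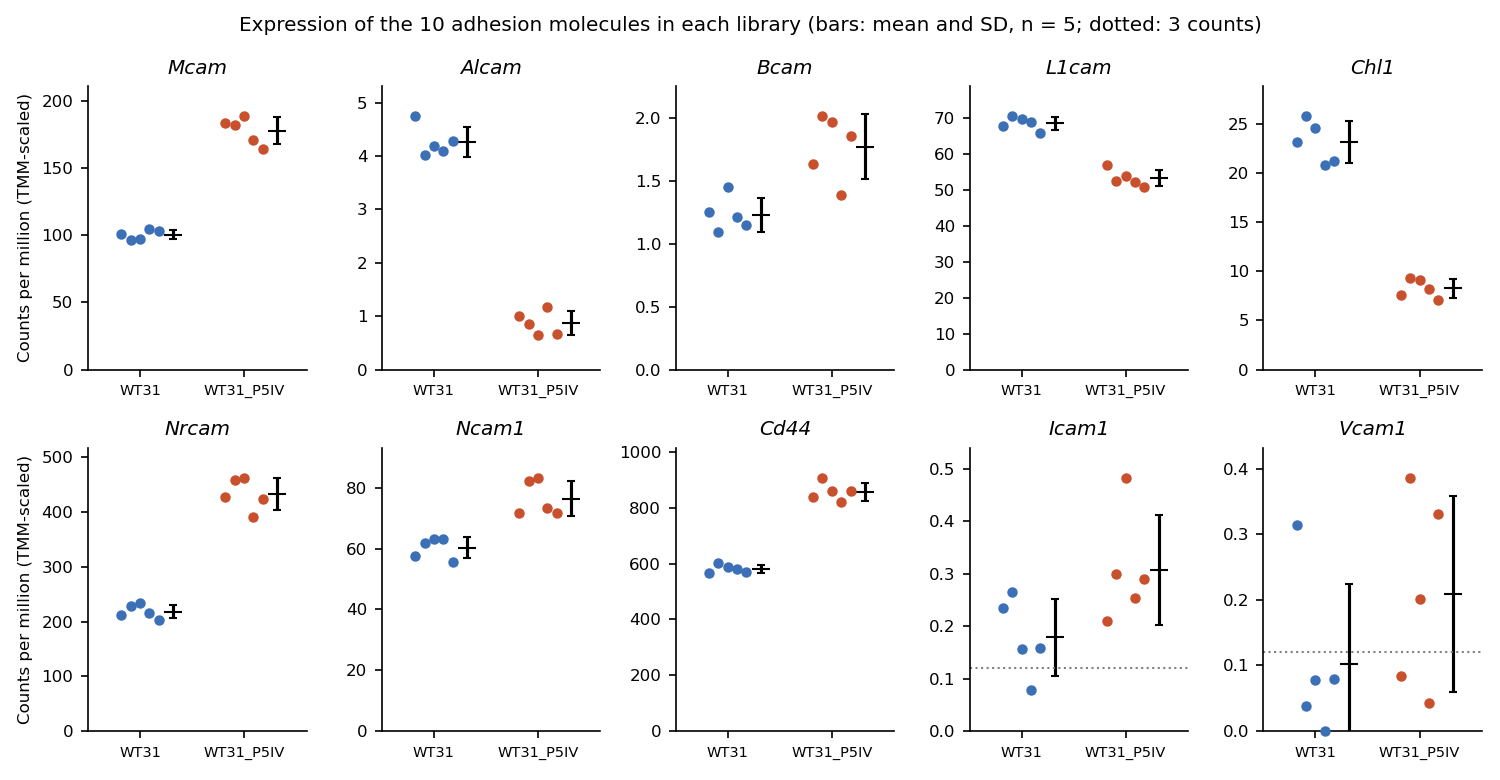
CPM (vertical axis, from 0, scaled by TMM) of the 10 genes in the 5 WT31 libraries (blue) and the 5 WT31_P5IV libraries (red), with the mean and SD as a black bar and, for Icam1 and Vcam1, the level of 3 counts as a dotted line. The groups lie apart for Mcam, Alcam, L1cam, Chl1, Nrcam, Ncam1 and Cd44 and overlap for Bcam, Icam1 and Vcam1.

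Alcam, which encodes the homophilic adhesion molecule CD166, showed the largest change of the 10 genes. It lies on chromosome 16 of GRCm38 from 52248996 to 52454074. In WT31 replicates 1 to 5 it had 121, 106, 107, 104 and 108 counts, and in WT31_P5IV 24, 20, 16, 28 and 16. The lowest WT31 library thus held more than the highest of WT31_P5IV. Its level fell from 4.26 ± 0.286 to 0.870 ± 0.229 CPM (SD, n = 5), which gave a log2 fold change of -2.30 ± 0.15 (SE, edgeR adjusted p = 5.22e-09). Among the tested genes, 1.88% had an absolute log2 fold change at least as large. With each library left out in turn the log2 fold change stayed between -2.44 and -2.21. Cd6, which encodes the heterophilic partner of ALCAM on lymphocytes, had at most 1 count in any library.

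Mcam encodes CD146, a receptor for laminin with alpha4 chains. It lies on chromosome 9 from 44134469 to 44142727. It was at 101, 96.3, 97.2, 104 and 103 CPM in the WT31 libraries and at 183, 182, 188, 170.4 and 164 CPM in the WT31_P5IV libraries, without overlap. Its mean rose from 100.2 ± 3.41 to 178 ± 9.92 CPM (SD, n = 5), a log2 fold change of 0.83 ± 0.04 (SE, edgeR adjusted p = 5.06e-10). The laminin chain gene Lama4 rose from 272 ± 22.1 to 331 ± 22.0 CPM (log2 fold change 0.28, edgeR adjusted p = 5.68e-04). An antisense gene, Gm10687, shares 17 exon bases with Mcam and had 34 to 78 counts, against 2478 to 4680 of Mcam.

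Bcam encodes the Lutheran glycoprotein, a receptor for laminin with the alpha5 chain. It lies on chromosome 7 from 19756131 to 19771016. Its counts were 32, 29, 37, 31 and 29 in WT31 and 39, 47, 49, 33 and 45 in WT31_P5IV. The ranges overlapped in CPM, since WT31 replicate 3 (1.45 CPM) lay above WT31_P5IV replicate 4 (1.39 CPM). Bcam rose from 1.23 ± 0.136 to 1.78 ± 0.260 CPM (SD, n = 5), which gave a log2 fold change of 0.53 ± 0.15 (SE, edgeR adjusted p = 0.00556). Lama5, the gene of the laminin alpha5 chain, rose from 43.0 ± 4.70 to 89.7 ± 5.68 CPM, a log2 fold change of 1.06 (edgeR adjusted p = 4.19e-09).

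The L1 family molecules are best known from axon growth and bind ankyrin on the inner side of the membrane. The 3 measured members moved in different directions, with Nrcam higher and L1cam and Chl1 lower in WT31_P5IV. Nrcam lies on chromosome 12 from 44328885 to 44601964. Its levels were 212, 228, 233, 215 and 203 CPM in the WT31 libraries and 427, 459, 463, 392 and 423 CPM in the WT31_P5IV libraries. Each WT31_P5IV library was above each WT31 library, and the means were 218 ± 12.4 and 433 ± 29.2 CPM (SD, n = 5). For Nrcam the log2 fold change amounted to 0.99 ± 0.05 (SE, edgeR adjusted p = 5.30e-10), just under 2-fold. It was 1.02 without WT31_P5IV replicate 4, the lowest of its group, and 1.03 without WT31 replicates 2 and 3, which was chosen after seeing the data.

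Chl1, the close homolog of L1, lies on chromosome 6 from 103510586 to 103750211. It was at 23.2, 25.7, 24.6, 20.8 and 21.2 CPM in WT31 and at 7.61, 9.35, 9.09, 8.21 and 7.02 CPM in WT31_P5IV. The groups were well apart, and the mean fell from 23.1 ± 2.13 to 8.26 ± 0.979 CPM (SD, n = 5). For Chl1 the log2 fold change amounted to -1.48 ± 0.08 (SE, edgeR adjusted p = 1.22e-09), a size that 4.11% of tested genes reached. L1cam, the founding member of the family, lies on chromosome X from 73853778 to 73896105. It was at 67.8, 70.5, 69.7, 68.9 and 65.9 CPM in WT31 and at 57.0, 52.5, 53.9, 52.3 and 50.8 CPM in WT31_P5IV. This decrease was small but larger than the spread between libraries, with a log2 fold change of -0.36 ± 0.04 (SE, edgeR adjusted p = 8.84e-07). Exons of Arhgap4, which had 3 to 14 counts, share 100 bases with L1cam on the same strand.

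Since the family members differ in length, their makeup was described in TPM, a unit per transcript length that sums to the same total in each library. In WT31, Nrcam held 77.9 ± 0.829% of the summed TPM of the 3 genes, L1cam 17.4 ± 0.493% and Chl1 4.73 ± 0.398% (SD, n = 5). In WT31_P5IV these shares were 91.4 ± 0.422%, 7.56 ± 0.443% and 1.04 ± 0.158%. The ratio of Nrcam to L1cam was 4.31 to 4.69 in the WT31 libraries and 11.1 to 12.9 in the WT31_P5IV libraries. The mean transcript length of Nrcam, given below, was 3349 bases in WT31 and 3170.5 bases in WT31_P5IV. Its long coding transcripts have 6275 and 4469 bases, and its other coding ones at most 1586. Part of its TPM thus came from short or non-coding transcripts, and the shares do not count coding transcripts alone.

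**Figure D2:**
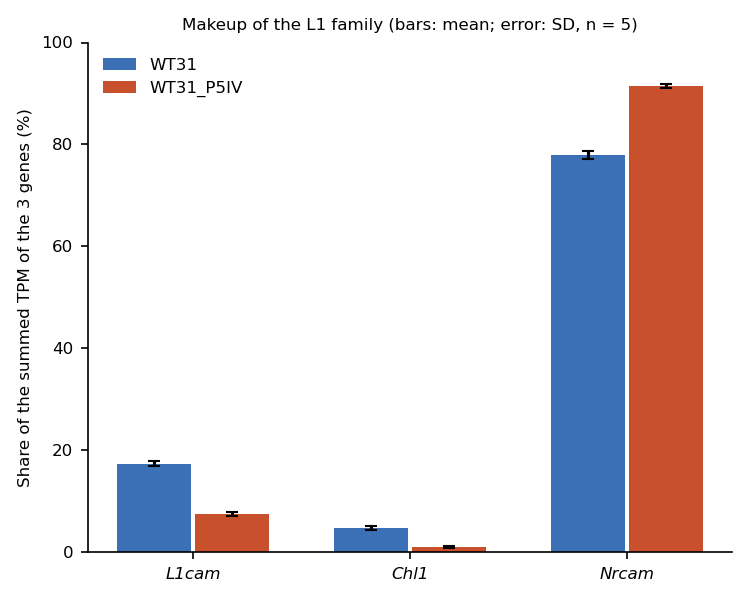
Share of the summed TPM of L1cam, Chl1 and Nrcam that each gene held (vertical axis, percent, from 0) in WT31 (blue) and WT31_P5IV (red), as the mean of 5 libraries with the SD. The share of Nrcam is 77.9% in WT31 and 91.4% in WT31_P5IV, and those of L1cam and Chl1 are lower in WT31_P5IV.

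Of 11 relatives, contactins and ankyrins listed with the L1 family, 1 had enough counts to be tested. This was Ank2, which encodes an ankyrin, and it fell from 60.4 ± 5.52 to 30.6 ± 1.63 CPM (log2 fold change -0.98, edgeR adjusted p = 2.94e-09). 7 of the 11, among them the fourth family member Nfasc and the NCAM relative Ncam2, had 3 counts or fewer in every library. Chl1 and Nrcam can act with neuropilins as receptors of class 3 semaphorins. Sema3a, the gene of such a ligand, rose from 0.46 ± 0.188 to 2.91 ± 0.455 CPM (log2 fold change 2.66, edgeR adjusted p = 4.70e-08). Nrp1, a neuropilin gene, fell from 34.2 ± 4.04 to 27.9 ± 2.45 CPM (log2 fold change -0.29, edgeR adjusted p = 0.00410).

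Ncam1, a homophilic adhesion molecule that can carry polysialic acid, lies on chromosome 9 from 49502136 to 49798925. It was at 57.4, 61.9, 63.3, 63.1 and 55.7 CPM in WT31 and at 71.6, 82.2, 83.2, 73.2 and 71.8 CPM in WT31_P5IV. The log2 fold change amounted to 0.34 ± 0.05 (SE, edgeR adjusted p = 5.83e-05). On the TPM scale the groups overlapped, at 17.9 to 21.8 and 21.4 to 25.2 TPM, and the call was lost, with a log2 fold change of 0.16 in limma on log2(TPM + 0.1) (adjusted p = 0.0615). This scale moved the log2 fold changes of all tested genes by a median of -0.17. An antisense gene shares 417 exon bases with Ncam1 and had at most 2 counts. Of 8 genes for polysialylation and partners of NCAM1, 5 were tested, 1 rose and 3 fell, with a median log2 fold change of -0.15 against 0.01 for all tested genes. The shares over all tested genes were 34.6% higher and 33.9% lower. The polysialyltransferase genes St8sia2 and St8sia4 had at most 1 and 10 counts per library. Fgfr1, the gene of a growth factor receptor that binds NCAM1, rose from 50.0 ± 4.14 to 79.5 ± 6.52 CPM (log2 fold change 0.67, edgeR adjusted p = 2.55e-07). Gfra1, the gene of a GDNF co-receptor, fell from 357 ± 12.2 to 321 ± 22.5 CPM (log2 fold change -0.15, edgeR adjusted p = 0.010), and Fyn, the gene of a kinase of the Src family, from 133 ± 2.19 to 115 ± 2.64 CPM (log2 fold change -0.21, edgeR adjusted p = 3.12e-05). Prnp, the gene of the prion protein, was at 88.6 ± 2.81 and 83.9 ± 3.74 CPM (log2 fold change -0.08, edgeR adjusted p = 0.0902). Gap43, named after its values were seen, had 16 to 24 counts in WT31 and 0 to 3 in WT31_P5IV, which was at least 5.72-fold lower against a limit of 3 counts per library.

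Cd44 lies on chromosome 2 from 102811141 to 102901665 and was the most abundant of the 10 genes in both lines. It was at 568, 602, 587, 580.2 and 569 CPM in WT31 and at 840.3, 908, 859.8, 822 and 862 CPM in WT31_P5IV. The groups did not overlap, and the mean rose from 581 ± 14.1 to 858 ± 32 CPM (SD, n = 5). For Cd44 the log2 fold change amounted to 0.56 ± 0.04 (SE, edgeR adjusted p = 4.14e-09), and 0.39 in limma on log2(TPM + 0.1).

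Of 18 genes for synthesis and breakdown of hyaluronan and for partners of CD44, 13 were tested, 4 rose and 6 fell, with a median log2 fold change of -0.00182 against 0.01 for all tested genes. Among all tested genes, 34.6% were higher and 33.9% lower. The hyaluronan synthase genes Has1 and Has2 had at most 3 counts in every library, and Has3 was at 0.662 ± 0.196 and 1.01 ± 0.317 CPM (log2 fold change 0.61, edgeR adjusted p = 0.0550). Spp1, the gene of osteopontin, a secreted ligand of CD44 and integrins, fell from 9.13 ± 0.495 to 0.282 ± 0.0958 CPM (log2 fold change -5.01, edgeR adjusted p = 6.22e-13). Its counts were 219 to 251 in the WT31 libraries and 5 to 11 in those of WT31_P5IV. The genes of the cortical linkers did not move alike. Msn (moesin) fell from 793 ± 8.65 to 553 ± 10.9 CPM (log2 fold change -0.52, edgeR adjusted p = 1.80e-09) and Rdx (radixin) from 202 ± 15.3 to 158 ± 4.69 CPM (log2 fold change -0.35). Ezr (ezrin) was at 60.0 ± 1.61 and 60.0 ± 2.23 CPM (edgeR adjusted p = 0.969). Esrp1 and Esrp2, which encode regulators of CD44 splicing in epithelial cells, had at most 2 and 7 counts per library.

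Icam1 and Vcam1 are ligands of leukocyte integrins that many cells make after cytokines activate NF-kB. Both were too low for the test across genes. Most of the few Icam1 counts were assigned to a transcript with a retained intron, as the transcript lengths given below show. Icam1, on chromosome 9 from 21015985 to 21028817, had 6, 7, 4, 2 and 4 counts in WT31 and 5, 7, 12, 6 and 7 in WT31_P5IV. The ranges overlapped. Its level was 0.179 ± 0.0734 CPM in the parental line and 0.307 ± 0.104 CPM in the subline (SD, n = 5), where 3 counts correspond to 0.114 to 0.129 CPM. A two-sided exact permutation test gave p = 0.0476 in CPM and p = 0.167 in TPM, unadjusted for the 2 genes, and the smallest p that 5 libraries against 5 allow is 0.00794. Without any 1 of 7 libraries (WT31 replicates 3, 4 and 5 and WT31_P5IV replicates 2 to 5) the exact p was 0.0635 to 0.0952. Vcam1, on chromosome 3 from 116109949 to 116129688, had 8, 1, 2, 0 and 2 counts in WT31 and 2, 9, 5, 1 and 8 in WT31_P5IV. A difference in Vcam1 was not detectable at this depth (two-sided exact permutation test, p = 0.222 in CPM and 0.825 in TPM). With single libraries left out the exact p was 0.0635 (without WT31 replicate 1, the library with 8 counts) to 0.444, and the difference was 0.0626 to 0.160 CPM higher in WT31_P5IV, against 0.107 CPM with all libraries. Antisense genes share 511 exon bases with Icam1 and 61 with Vcam1, and had at most 4 and 0 counts.

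Of 26 NF-kB and cytokine genes, 18 were tested, 6 rose and 5 fell, with a median log2 fold change of -0.04 against 0.01 for all tested genes. Of 19 ligands and counter-receptors of the 10 molecules, 12 were tested, 8 rose and 3 fell, with a median of 0.36 against the same 0.01. Over all tested genes, 34.6% were higher and 33.9% lower. No list was tested against these shares. Itga4, which pairs with Itgb1 as the receptor of VCAM1, rose from 625 ± 83.9 to 1507 ± 96.6 CPM (log2 fold change 1.27, edgeR adjusted p = 2.93e-09). Itgb1 rose from 832 ± 47.7 to 1157 ± 87.5 CPM (log2 fold change 0.48). The integrin genes Itgav and Itga5 rose (log2 fold changes 0.44 and 0.66, edgeR adjusted p = 2.26e-04 and 4.94e-09), and Itgb3 was at 5.09 ± 0.366 and 5.04 ± 0.821 CPM (edgeR adjusted p = 0.912). Lgals1, the gene of galectin-1, rose from 474 ± 47.4 to 524 ± 15.5 CPM (log2 fold change 0.15, edgeR adjusted p = 0.0365). Ptn, the gene of the secreted factor pleiotrophin, fell from 168 ± 2.24 to 73.8 ± 2.94 CPM (log2 fold change -1.19, edgeR adjusted p = 1.41e-12). Lgals3, the gene of the sugar-binding protein galectin-3, fell from 13.3 ± 1.77 to 3.83 ± 0.587 CPM (log2 fold change -1.80, edgeR adjusted p = 3.79e-09). The leukocyte integrin genes Itgal, Itgam and Itgb2 had at most 10, 3 and 7 counts per library.

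Several of these molecules are cut from the cell surface by proteases. Of 9 sheddase genes and inhibitors, 7 were tested, 4 rose and 2 fell, with a median log2 fold change of 0.36, and none was past 2-fold. Over all tested genes, 34.6% were higher and 33.9% lower, with the median given above for the NF-kB genes. Adam17, a protease that releases ALCAM and L1CAM, rose from 74.6 ± 6.44 to 98.1 ± 6.81 CPM (log2 fold change 0.40, edgeR adjusted p = 3.95e-05). Adam10 was at 258 ± 14.3 and 278 ± 25.8 CPM (edgeR adjusted p = 0.127). Bace1, whose protease cuts CHL1, fell from 118 ± 8.01 to 68.7 ± 6.42 CPM (log2 fold change -0.79, edgeR adjusted p = 4.11e-08). Of the other tested genes of this list, Adam8, Mmp2 and Mmp14 rose (log2 fold changes 0.91, 0.54 and 0.36) and Bace2 fell (-0.20).

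Of 31 other immunoglobulin-type adhesion molecules, 18 were tested, 10 rose and 5 fell, with a median log2 fold change of 0.33. For comparison, 34.6% of all tested genes were higher and 33.9% lower, with the median given above for the NF-kB genes. The counts of Ntm (neurotrimin) were 181 to 225 in the WT31 libraries and 0 to 3 in those of WT31_P5IV, at least 62.3-fold lower (edgeR adjusted p = 2.59e-12). Emb (embigin) had 110 to 146 and 0 to 2 counts, at least 38.6-fold lower (edgeR adjusted p = 5.21e-11). The median of the list was the same with both at their bounds. Igsf8 rose from 31.5 ± 2.32 to 78.7 ± 4.26 CPM (log2 fold change 1.32) and Ceacam1 from 3.68 ± 0.362 to 9.01 ± 0.852 CPM (log2 fold change 1.29).

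**Figure D3:**
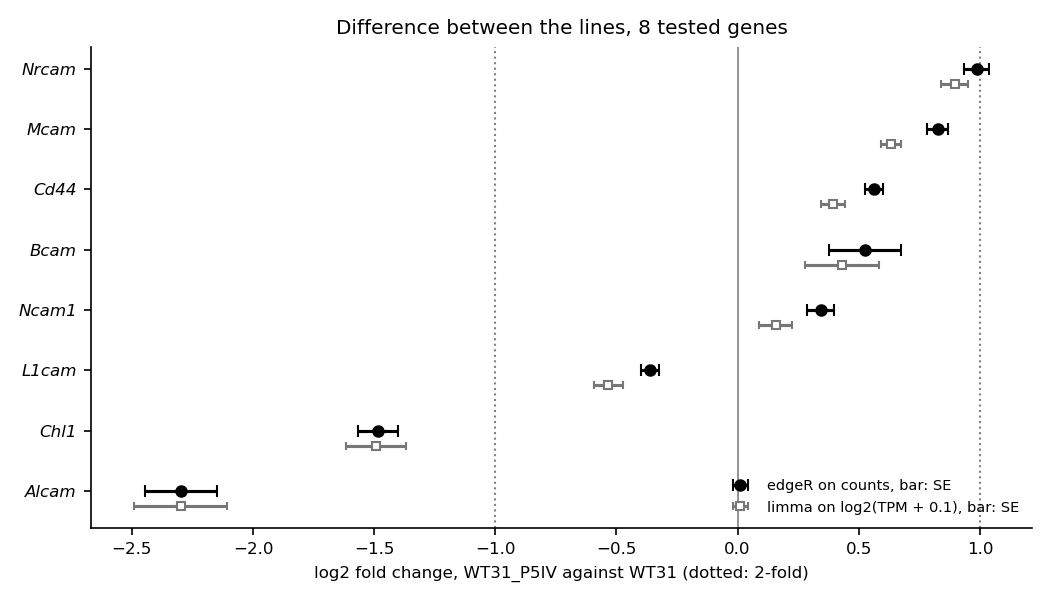
Log2 fold change of WT31_P5IV against WT31 (horizontal axis) for the 8 tested genes, from counts in edgeR (filled circles) and from log2(TPM + 0.1) in limma (open squares), with the standard error. Alcam (-2.30) and Chl1 (-1.48) lie past the dotted 2-fold lines, and Nrcam (0.99) lies just inside.

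The order of the 10 genes by level was read in TPM. In WT31 it ran from Cd44 (203 ± 14.3 TPM) through Nrcam (103 ± 6.46), Mcam (56.3 ± 1.21), L1cam (23.1 ± 1.49), Ncam1 (20.5 ± 1.61), Chl1 (6.29 ± 0.799), Alcam (2.17 ± 0.445) and Bcam (0.867 ± 0.0976) to Icam1 (0.135 ± 0.0598) and Vcam1 (0.0849 ± 0.0888). The ranges of L1cam and Ncam1 overlapped, and so did those of Icam1 and Vcam1. In WT31_P5IV the same quantity was 267 ± 12.3 TPM for Cd44, 193 ± 14.1 for Nrcam, 87.5 ± 4.49 for Mcam, 22.9 ± 1.80 for Ncam1, 15.9 ± 0.869 for L1cam, 2.18 ± 0.357 for Chl1, 1.22 ± 0.263 for Bcam and 0.366 ± 0.117 for Alcam. Ncam1 thus stood above L1cam and Bcam above Alcam in WT31_P5IV, with ranges that did not overlap, while that of Alcam overlapped that of Icam1. Cd44, Nrcam and Mcam together kept the first 3 places in both lines. Cd44 held 48.8 ± 0.767% of the summed TPM of the 10 genes in WT31 and 45.3 ± 0.846% in WT31_P5IV, and Nrcam 24.8 ± 0.524% and 32.6 ± 0.804%.

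**Figure D4:**
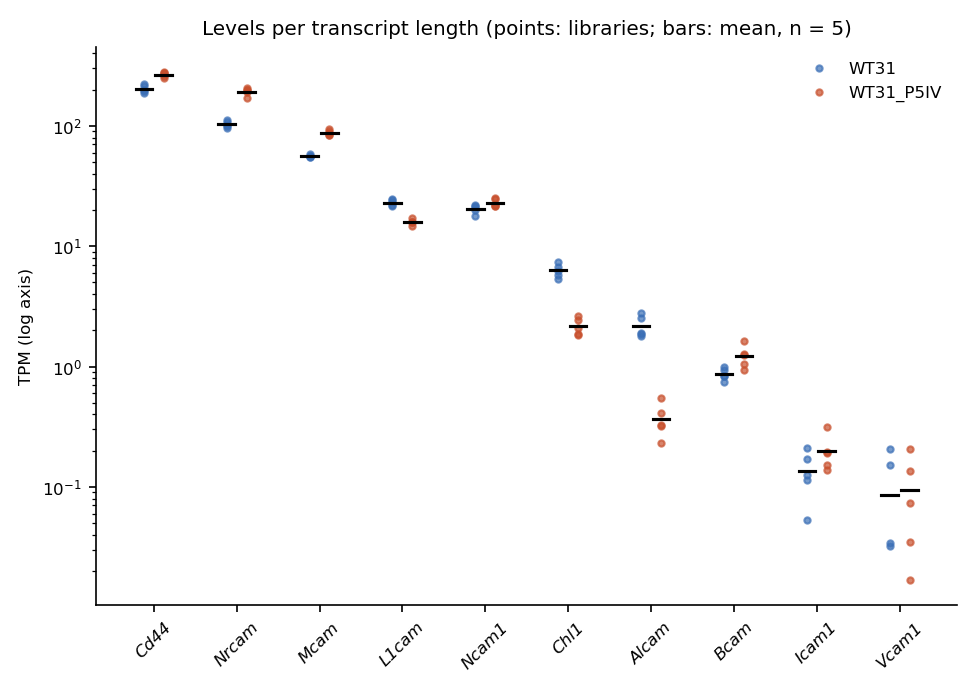
TPM (vertical axis, logarithmic) of the 10 genes in each WT31 library (blue) and WT31_P5IV library (red), with the mean of 5 as a bar and the genes in the order of WT31. 1 Vcam1 value of 0 is not drawn on this axis, and Alcam lies below Bcam in WT31_P5IV only.

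The estimated count of a gene divided by its TPM depends on the mean effective length of its transcripts, which gave a second readout that the choice of genes did not use. It was calibrated in each library on 619 to 642 genes with a single transcript, of which 98.0 to 98.4% lay within 1% of the line. For Nrcam, with 17 annotated transcripts of up to 6275 bases, the mean length was 3350, 3481, 3375, 3276 and 3263 bases in WT31 and 3169, 3182, 3193, 3226 and 3084 bases in WT31_P5IV. The groups did not overlap, and the mean was 179 bases lower in the subline (exact permutation test, two-sided, p = 0.00794). For Chl1 the mean length was 5692 ± 126 and 5245 ± 319 bases, 447 bases lower in the subline, with overlapping ranges (exact permutation test, two-sided, p = 0.0159). These p-values are not adjusted for the 8 genes compared, and length ranges did not overlap for 7.69% of 12326 genes. The exact p of the other 6 genes was 0.151 to 1. In Alcam, whose length rests on few counts, the values ranged from 2733 to 3635 bases in WT31 and from 2654 to 4951 bases in WT31_P5IV. The mean length of Icam1 was 2254 ± 62.6 bases in WT31 and 2243 ± 55.5 bases in WT31_P5IV (SD). Both are nearer to its retained-intron transcript (2203 bases) than to its coding one (2535 bases). Vcam1 was at 4088 bases, the length of its retained-intron transcript, in WT31 replicates 3 and 5 and in WT31_P5IV replicate 1.

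Each gene was then set beside its chromosome and its neighbours. Alcam lies on chromosome 16, where 282 of 414 other tested genes were lower and 42 higher, with a median log2 fold change of -0.42. Cblb, the single other tested gene within 1 Mb of Alcam, had -0.46. Chl1 lies on chromosome 6, where 401 of 676 other tested genes were higher and 93 lower, with a median of 0.28. Gm44440, which lies within Chl1 on the same strand without sharing exon bases and had 5 to 35 counts, had a log2 fold change of 1.28, opposite to that of Chl1. The medians of chromosomes 2, 7, 9, 12 and X lay between -0.13 and 0.08. Of the 3 other tested genes within 1 Mb of Nrcam, 1 was lower (Pnpla8, -0.35) and 2 were not called. Within 1 Mb of Mcam the 37 other tested genes had a median of 0.16, with 19 higher and 5 lower. Within 1 Mb of Bcam, itself at 0.53, the 40 other tested genes had a median of 0.29 and a range of -0.31 to 4.89, with 25 higher and 4 lower. Around Cd44, which rose, the 11 others had a median of -0.18, with 2 higher and 6 lower. Around L1cam 12 of 35 were higher and 14 lower (median -0.04), and around Ncam1 7 of 19 were higher and 6 lower (median -0.02). The part of these regional values in the differences of the members was not tested.

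**Figure D5:**
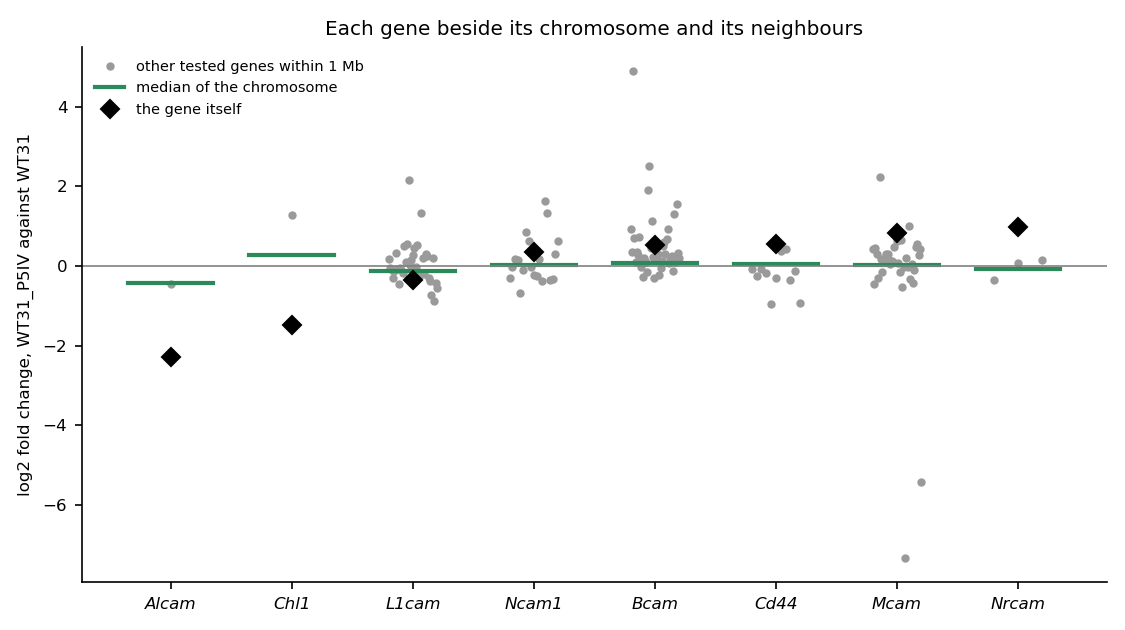
Log2 fold change of WT31_P5IV against WT31 (vertical axis) of the 8 tested genes (diamonds), of other tested genes within 1 Mb (grey points) and the median of all other tested genes of the same chromosome (green lines). Alcam (-2.30) lies below a chromosome median of -0.42, and Chl1 (-1.48) lies below one of 0.28.

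The tested genes whose log2 CPM ran most like that of each strongly changed member over the 10 libraries were named as a description. They were Srxn1 and Sec31a for Alcam (Pearson's r of 0.996 and 0.995), Knop1 and Tomm70a for Chl1 (0.998 and 0.996) and Plxnb2 and Abca3 for Nrcam (0.998 each). The points share the split between the lines, and 16, 59 and 163 genes had an r above 0.99 with Alcam, Chl1 and Nrcam.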

How the data were processed

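RNA-seq of cultured WT31 and WT31_P5IV cells was used, with 5 libraries per group and replicate numbers taken from the sample titles. The file labels number WT31 replicates 3, 4 and 5 as 4, 5 and 6. According to the submitters' processing notes and the methods of the study, the authors trimmed reads with Trim Galore 0.6.4 and quantified them with kallisto against GRCm38.p6, and deposited estimated counts and TPM values per gene. The annotation release and the use of strand are not given in the sources used here. Symbols and positions came from GENCODE M21, which holds 55144 of the 55385 identifiers, matched without version numbers. The 10 genes and the companion lists were chosen with earlier results of these data known.

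Estimated counts were rounded. The filterByExpr function kept 13620 of 31234 genes with at least 1 count. After TMM scaling, glmQLFTest of edgeR 4.0.16 (R 4.3.3) compared the lines, and Benjamini-Hochberg adjustment ran across these genes. The study used voom, and voom fits are among the alternatives, but its filter and scaling are not given in the sources used here and its fit was not rebuilt. Standard errors are the absolute log2 fold change over the square root of F. In simulated data with 200 of 13620 genes changed the test found 99% with 14 false calls. CPM are on the scaled library sizes, and intervals of 3 counts cover counting error only. Within a group, library pairs differed by more than sampling noise (chi-square per degree of freedom 2.37 to 22.6), so that all libraries were counted. Genes too low for the fit and mean transcript lengths were compared by exact two-sided permutation tests.

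Named from each companion list were up to 4 genes with an adjusted p under 0.05, an absolute log2 fold change of at least 1 and at least 1 CPM in a group, chosen by size, and partners of the members where these are described. Outside this rule, the sheddase genes, the hyaluronan synthase, polysialyltransferase and Esrp genes, Nfasc, Ncam2 and the markers were named for their roles after their values were seen. Of the 3 genes most like each of Alcam, Chl1 and Nrcam, 2 are given. Alternatives were DESeq2 1.42.0, limma 3.58.1 (voom with TMM, voom without TMM or filter, and log2 TPM plus 0.1 or 1), upper-quartile scaling, other filters, the replicate number as a block, glmTreat against a fold change of 2, and each library left out in turn. Leaving out WT31 replicates 2 and 3 together, the alternatives for the low genes and the transcript lengths were added after seeing the data. Of the words of 31 bases in the members' transcripts, other genes' transcripts on the same strand hold at most 3.5% (Icam1), and those on the opposite strand 14.3% of Icam1, led by Gm47079, 4.23% of Ncam1 and at most 1.58% of the others.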

Additional observations from a re-analysis of the deposited data

Results flagged for a closer look

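Among the 5 WT31 libraries, replicate 1 stood far from the others in Vcam1, with 8 counts (0.314 CPM) against 0 to 2 counts in the other libraries of the group. The gap to the next library was 0.747 of the range of the group. This was the single such case in 20 groups of 5 libraries (10 genes in 2 lines), and chance alone flags about 1 group in 20.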

How the results depend on the processing

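No member changed direction under any of the 21 alternatives to the fit, and Alcam and Chl1 kept their call in all of them. In edgeR's glmTreat test against a fold change of 2, 0 of the members were called higher (0 also at an unadjusted p under 0.05) and 2 lower. This stricter test called 608 of all genes, and from the companion lists 0 genes for the L1 and NCAM relatives and 0 for the sheddases (0 also at an unadjusted p under 0.05 in both), 1 for NCAM1 partners, 2 for hyaluronan and CD44 partners, 4 for ligands and counter-receptors, 1 for NF-kB genes and 5 for other immunoglobulin-type molecules. In the other fits 8965 to 9444 genes were called with a library left out, and 10163 at most. The number of members past 2-fold upward was 1 (Nrcam) with upper-quartile scaling and without WT31 replicates 2 and 3 together, and 0 to 1 with single libraries left out. Ncam1 lost its call on log2(TPM + 0.1) and log2(TPM + 1), with log2 fold changes of 0.16 and 0.15 (adjusted p = 0.0615 and 0.0632 in limma). The log2 fold changes of Alcam and Bcam were -1.21 and 0.24 on log2(TPM + 1), where the added 1 TPM is of the size of their levels. For Icam1 the difference was 0.0629 TPM (exact permutation p = 0.167), and 0.0843 to 0.152 CPM with single libraries left out. The order of the members was the same in CPM and TPM and with each library left out. Under 3 counts (0.114 to 0.129 CPM) the depth limits what can be said of Icam1 and Vcam1.

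The numbers of the sample titles, which differ from those of the file labels for 3 WT31 libraries, gave no clear pairing. Same-numbered libraries had correlations of -0.096 to 0.178 in their deviations and 1 of 5 was above 0.1. Of the 5 WT31 libraries, 2 correlated best with their own number. So few correlations cannot exclude shared cultures, and a pairing by the file labels was not examined. With the replicate block 9380 genes were called, 5 members were higher and 3 lower, 0 were past 2-fold upward and 2 downward, and the block changed no other call of a member.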
